A study of Mus musculus with 14 samples.

Results

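Transcript levels of 43 genes of glycolysis, glycogen metabolism and the hypoxia response were examined in macrophages taken from mouse mammary tumours. The genes were given by name, with the condition that 3 or more libraries reach an unlogged value of 10, which is a log2 value of 3.32. All 43 were found and kept, out of 24556 genes in the deposited table, of which 11886 were kept, and 42 of the 43 reached that level in all 14 libraries. They were 3 glucose and lactate transporters, 18 glycolytic enzymes, 4 genes of pyruvate fate, 3 of oxygen sensing, 11 hypoxia-induced genes, 3 glycogen enzymes and 1 creatine kinase. The macrophages were F4/80-positive cells, isolated with magnetic beads over a pair of columns in succession, from tumours that 4T1 cells had formed in the fat pad of Balb/c mice. 4T1 is a mouse mammary carcinoma line. Before injection the 4T1 cells, and not the macrophages, had been cultured for 5 days with 5 µM GSK269962A or with DMSO, the vehicle. The 4 groups were GSK on day 14 (4 libraries), DMSO on day 14 (4 libraries), GSK on day 8 (3 libraries) and DMSO on day 8 (3 libraries). All groups share the 4T1 line, the host strain and the isolation. The labels number the libraries without saying that each came from its own mouse, so the p-values measure the spread between these samples, which may be technical.

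Glycolysis splits glucose into pyruvate, and lactate dehydrogenase and the lactate exporters carry the excess out of the cell. Low oxygen stops prolyl hydroxylases from marking the HIF alpha subunits for degradation, and HIF then induces glucose transporters, most glycolytic enzymes, the angiogenic factor Vegfa and mitophagy genes such as Bnip3. Macrophages in tumours are known to rely on glycolysis and to express HIF targets where oxygen is low, and many activated macrophages store glycogen.

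The defining macrophage markers were present, with all 10 of the list kept and a mean log2 level between 10.74 and 11.60 in every library. On day 14, 4 of those 10 were higher and 2 lower in GSK than in DMSO libraries, beside 5.1% and 5.73% of all genes. The changes of the 10 ranged from -0.62 to 1.04. Adgre1, the gene of F4/80, was 0.70 higher (limma adjusted p = 0.0413). Markers of the 4T1 epithelium were also present, 11 of 14 kept, with a mean log2 level of 4.93 to 5.20 in GSK day 14, 5.28 to 5.66 in DMSO day 14, 5.85 to 7.36 in GSK day 8 and 5.78 to 6.62 in DMSO day 8 libraries. Markers of other cells were kept too, with means over the libraries of 5.16 to 5.91 for endothelium (8 of 8 kept), 4.36 to 4.91 for fibroblasts (5 of 8), 4.64 to 5.32 for dendritic cells (5 of 8), 5.71 to 6.60 for neutrophils (3 of 10), 4.38 to 4.88 for T and NK cells (3 of 10), 4.38 to 5.76 for B and plasma cells (3 of 8) and 4.37 to 7.40 for erythroid cells (2 of 6). S100a8, S100a9 and Retnlg of neutrophils and Cd3e, Cd2 and Cd4 were kept in all 14 libraries, whereas Ly6g, Cd3d and Cd3g were below the filter. Of these other markers, and those of the epithelium, 1 passed on day 14 between GSK and DMSO. It was in the B and plasma cell list, as lower, where 10.8% of all genes passed. On day 8, 1 of the 11 epithelial markers passed, as higher in GSK (limma adjusted p = 0.036), where 0.194% of all genes passed. Of these 11 markers, 10 had a positive change on day 8, with a median of 0.44, beside 53% and 0.02 over all kept genes. Libraries of 1 group correlated at 0.967 to 0.993 over the kept genes. Libraries also split by ribosomal RNA: of the overlapping genes AY036118 and Gm42418, AY036118 was higher in 9 libraries, all 4 of GSK day 14 among them, and Gm42418 in 5. Values within the 9 are given with the results; the 5 hold no GSK day 14 library and could not give a day 14 comparison.

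On day 14, 5 of the 43 genes were lower in macrophages from GSK tumours than from DMSO tumours and none was higher. The 5 were Slc16a3, a lactate exporter, Pfkl, the liver-type phosphofructokinase, Gys1, glycogen synthase, Ckb, a creatine kinase, and P4ha2, a collagen prolyl hydroxylase. Across all genes 10.8% passed the same test, 5.1% as higher and 5.73% as lower, so the count of members was close to that background. The median change over the 43 genes was 0.01 on the log2 scale, beside 0.02 over all kept genes. In bulk RNA, fewer cells of a type and less RNA per cell cannot be told apart, and this holds for every difference given here. The groups did not overlap for 12 of the 43 genes, 5 higher and 7 lower in GSK, where 22% of all genes did not overlap. On day 8 none of the 43 passed in limma, where 0.194% of all genes did, and the lowest adjusted p was 0.0613, for Gys1. An unadjusted p under 0.05 was found for 10 of the 43 on day 8, and for 16.3% of all genes. The groups of day 8 did not overlap for 10 genes, 7 higher and 3 lower, against 16.2% of all genes.

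**Figure D1:**
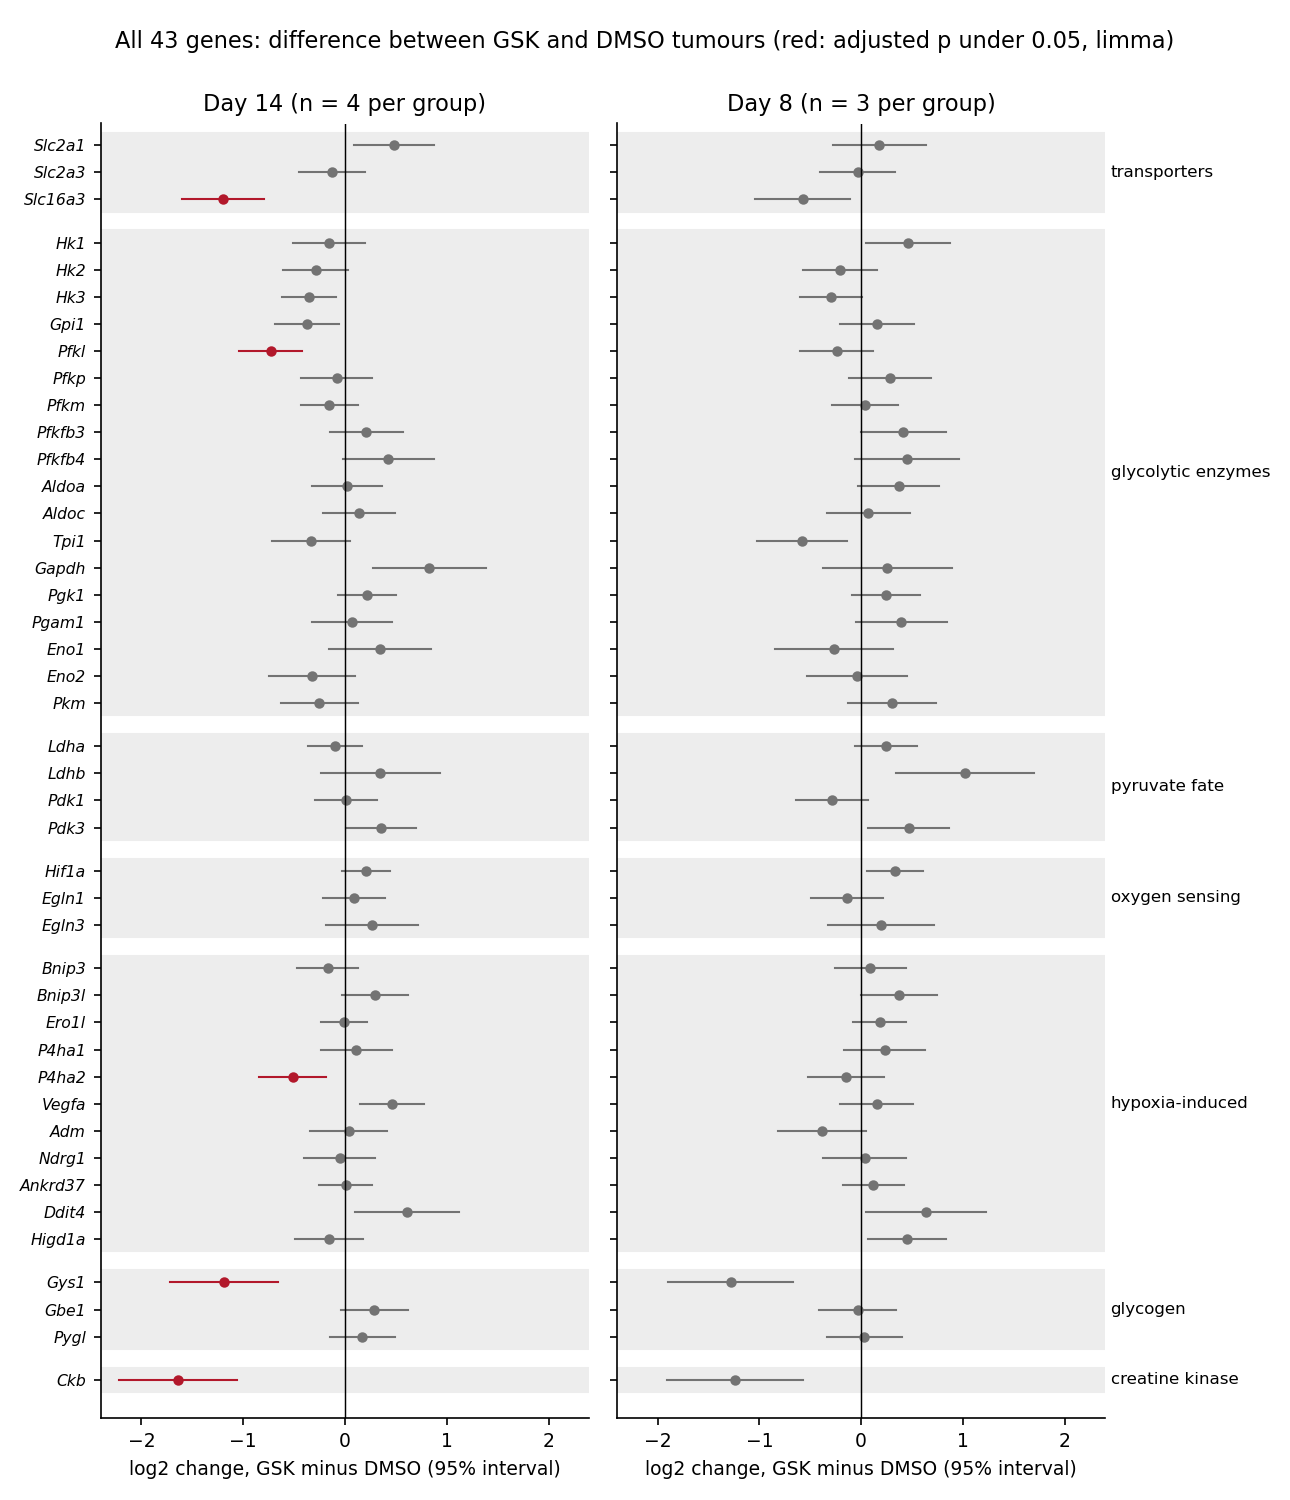
The log2 change between GSK and DMSO tumours for all 43 genes, in rows grouped by role, on day 14 (left, 4 libraries per group) and day 8 (right, 3 per group); points are limma estimates and lines their 95% intervals. Red marks an adjusted p under 0.05. Of the 43 genes, 5 are red on day 14, all to the left of 0, and none on day 8, where Gys1 (-1.28) and Ckb (-1.24) lie farthest to the left.

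The sequences upstream of the start site are shown for a pair of the genes that were lower on day 14 (Slc16a3 and Ckb) and for the hypoxia-induced pair Vegfa and Bnip3. They come from RefSeq, build GRCm38.p6, which is the C57BL/6J reference and not the Balb/c genome, and are written 5′ to 3′ on the gene's strand. Capitals mark ACGTG or GCGTG on either strand, the core letters of a HIF element, so that CACGT and CACGC are the reverse strand matches. CACGTG counts as ACGTG once on each strand. The windows are Slc16a3 at chr11:120948817-120949066 (plus strand), Ckb at chr12:111672339-111672588 (minus strand), Vegfa at chr17:46032378-46032627 (minus strand) and Bnip3 at chr7:138909507-138909756 (minus strand).
Slc16a3: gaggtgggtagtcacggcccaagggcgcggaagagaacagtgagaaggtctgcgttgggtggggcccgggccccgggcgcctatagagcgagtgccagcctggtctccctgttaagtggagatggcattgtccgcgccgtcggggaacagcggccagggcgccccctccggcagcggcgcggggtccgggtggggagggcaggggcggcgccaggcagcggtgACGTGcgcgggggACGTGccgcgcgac
Ckb: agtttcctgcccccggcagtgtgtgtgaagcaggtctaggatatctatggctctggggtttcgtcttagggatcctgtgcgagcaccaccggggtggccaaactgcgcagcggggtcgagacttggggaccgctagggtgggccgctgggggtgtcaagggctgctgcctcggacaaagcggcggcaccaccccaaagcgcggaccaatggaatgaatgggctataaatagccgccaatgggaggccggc
Vegfa: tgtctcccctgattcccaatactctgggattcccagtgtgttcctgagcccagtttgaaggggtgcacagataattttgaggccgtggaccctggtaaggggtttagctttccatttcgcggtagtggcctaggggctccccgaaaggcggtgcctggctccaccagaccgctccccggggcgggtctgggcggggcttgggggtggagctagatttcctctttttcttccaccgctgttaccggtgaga
Bnip3: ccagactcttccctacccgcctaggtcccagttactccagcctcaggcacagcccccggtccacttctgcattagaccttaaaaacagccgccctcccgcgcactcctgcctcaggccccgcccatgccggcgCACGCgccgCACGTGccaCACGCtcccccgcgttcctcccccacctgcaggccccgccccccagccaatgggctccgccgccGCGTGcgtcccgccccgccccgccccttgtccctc
The Bnip3 window holds 5 matches and that of Slc16a3 holds 2, at positions -27 and -14 from the start, whereas those of Ckb and Vegfa hold none.

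RefSeq entries were matched for 40 of the 43 genes, Ero1l under its synonym Ero1a, with no entry for Slc2a3, Bnip3l and Ndrg1. In the 250 bases before the start, ACGTG or GCGTG on either strand occurred in 30 of the 40 (75.0%), against 38.6% of 27025 RefSeq promoters. The windows of these genes had a median GC content of 62.8%, against 52.0% over all promoters, and both motifs hold a CG. By role, a match was found in 8 of 9 hypoxia-induced genes, 12 of 18 glycolytic enzymes, both matched transporters, all 4 genes of pyruvate fate, all 3 of oxygen sensing and 1 of 3 glycogen genes. Neither Gys1 nor Ckb had a match and Pfkl had 1, at position -99, so the genes that were lower on day 14 included both kinds. A match describes letters only and is not a binding site, and bases outside the 250 were not searched.

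Of the 3 transporters, the lactate exporter was lower in GSK tumours on day 14, and neither glucose importer passed. Slc16a3 (MCT4, the exporter of lactate in glycolytic cells) had log2 values of 11.73, 12.08, 11.97 and 11.55 in GSK day 14 libraries, against 13.22, 13.27, 12.58 and 13.06 in DMSO day 14 libraries. Every GSK library was below every DMSO library, and the gene fell by 1.197 on the log2 scale (SE 0.19, limma adjusted p = 0.0038), 2.29-fold lower. On day 8 Slc16a3 had 13.21, 12.50 and 12.49 in GSK libraries, against 13.39, 13.37 and 13.17 in DMSO libraries. GSK library 1 lay within the DMSO range, and the difference of -0.57 (95% interval -1.04 to -0.11) did not pass (adjusted p = 0.215). The effects of the 2 days differed by -0.62 (interval -1.24 to -0.01, adjusted p = 0.599), so a larger effect on day 14 was not shown. On the mean of both days the gene was 0.89 lower on the log2 scale (SE 0.14, adjusted p = 0.0021), a comparison that uses the same libraries.

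Slc2a1 (GLUT1, the glucose importer that HIF induces) had 10.64, 10.47, 10.31 and 10.64 in GSK day 14 libraries, against 9.55, 10.05, 10.30 and 10.21 in DMSO day 14 libraries. The groups all but touched, at 10.31 in GSK library 3 and 10.30 in DMSO library 3, and the difference of 0.48 (interval 0.09 to 0.88) did not pass the test over all genes (limma adjusted p = 0.102). On day 8 Slc2a1 had 9.48, 9.90 and 10.06 in GSK libraries, against 10.01, 9.35 and 9.55 in DMSO libraries, which overlapped, with a difference of 0.18 (adjusted p = 0.719). Slc2a3, a further glucose importer, averaged 6.31 in GSK day 14 and 6.44 in DMSO day 14 libraries, a difference of -0.13 that did not pass.

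**Figure D2:**
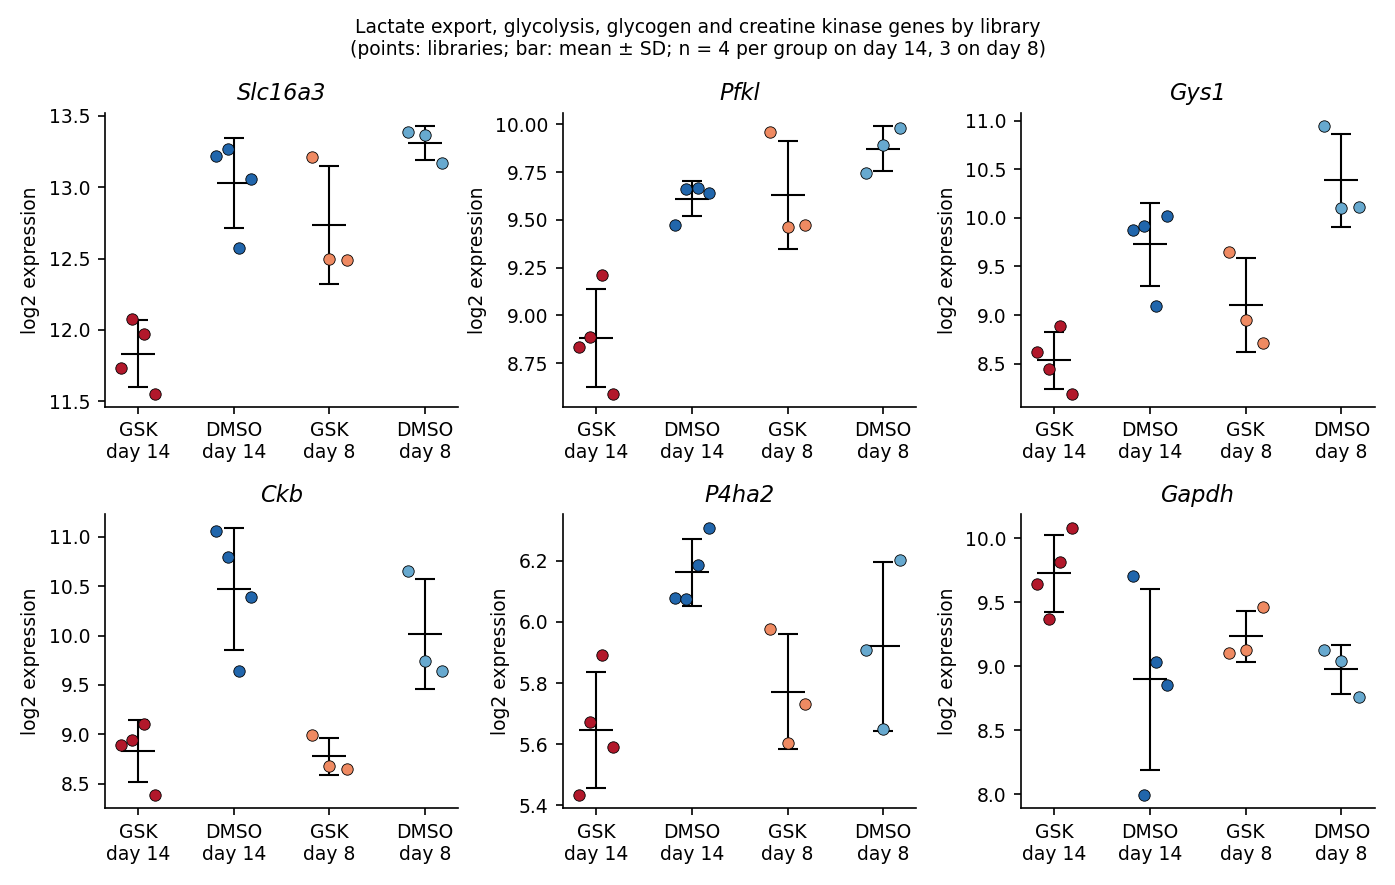
Log2 expression in each library of Slc16a3, Pfkl, Gys1, Ckb, P4ha2 and Gapdh, in GSK day 14, DMSO day 14, GSK day 8 and DMSO day 8 tumours; points are libraries and bars the mean ± SD (n = 4 per group on day 14, 3 on day 8). In the first 5 panels every GSK day 14 point lies below every DMSO day 14 point, and only for Gys1 and Ckb are the day 8 groups also apart; Gapdh runs the other way, and its groups overlap.

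Of the 18 glycolytic enzymes, Pfkl alone was lower on day 14 and none was higher. Across all genes 5.73% were lower and 5.1% higher. Pfkl (the liver isoform of phosphofructokinase, the committed step of glycolysis) had 8.84, 8.89, 9.21 and 8.59 in GSK day 14 libraries, against 9.47, 9.66, 9.67 and 9.64 in DMSO day 14 libraries. The groups were fully apart, and Pfkl fell by 0.73 on the log2 scale (SE 0.15, limma adjusted p = 0.00911), 1.66-fold lower. On day 8 it had 9.96, 9.46 and 9.47 in GSK libraries, against 9.75, 9.89 and 9.98 in DMSO libraries. These overlapped through GSK library 1, with a difference of -0.24 (interval -0.60 to 0.12, adjusted p = 0.511). The other isoforms differed less on day 14: Pfkp by -0.08 and Pfkm by -0.16, neither of which passed. The genes of the regulator of this step, Pfkfb3 and Pfkfb4, which make and remove fructose-2,6-bisphosphate, were 0.21 and 0.43 above DMSO and did not pass either.

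At the entry of the pathway, Hk2, the inducible hexokinase, had 11.61, 11.55, 11.76 and 11.35 in GSK day 14 libraries, against 11.88, 12.06, 11.53 and 11.94 in DMSO day 14 libraries. It had 12.11, 11.94 and 11.90 in GSK day 8 libraries, against 12.49, 11.95 and 12.13 in DMSO day 8 libraries. The groups overlapped on both days, with differences of -0.29 on day 14 (interval -0.60 to 0.03) and -0.21 on day 8 that did not pass. Hk3, a hexokinase of myeloid cells, had 7.84, 7.72, 7.86 and 7.83 in GSK day 14 libraries, against 8.37, 7.88, 8.17 and 8.25 in DMSO day 14 libraries. On day 8 Hk3 had 7.67, 7.83 and 7.94 in GSK libraries, against 8.18, 8.13 and 8.02 in DMSO libraries. The groups were apart on both days, but each difference alone (-0.36 and -0.30) did not pass. On the mean of both days Hk3 was 0.33 lower on the log2 scale (SE 0.10, limma adjusted p = 0.0351).

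From the triose phosphates to pyruvate no gene passed on either day alone. Tpi1, triosephosphate isomerase, had 11.52, 11.61, 11.77 and 11.43 in GSK day 14 libraries, against 11.50, 12.05, 11.86 and 12.23 in DMSO day 14 libraries, and 11.11, 11.57 and 11.49 in GSK day 8 libraries, against 12.20, 11.54 and 12.17 in DMSO day 8 libraries. Both days overlapped, and only the mean of both days passed, 0.46 lower on the log2 scale (SE 0.14, limma adjusted p = 0.0381). The change was -0.06 within the 9 libraries where AY036118 was higher. Of the DMSO day 8 group those hold library 2 alone, the lowest of that group for Tpi1. Gapdh, the next enzyme and a common reference transcript, had 9.64, 9.37, 9.81 and 10.08 in GSK day 14 libraries, against 9.70, 8.00, 9.03 and 8.85 in DMSO day 14 libraries. GSK libraries 1 and 2 were below DMSO library 1, and the difference of 0.83 (interval 0.28 to 1.38) was just outside the threshold (adjusted p = 0.0515); without DMSO day 14 library 1 it was 1.10 (adjusted p = 0.0138). On day 8 Gapdh had 9.10, 9.13 and 9.46 in GSK libraries, against 9.12, 9.04 and 8.76 in DMSO libraries, with no call.

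Pgk1, phosphoglycerate kinase, had 11.39, 11.38, 11.50 and 11.52 in GSK day 14 libraries, against 11.55, 10.96, 11.21 and 11.20 in DMSO day 14 libraries. It had 10.96, 11.17 and 11.39 in GSK day 8 libraries, against 10.90, 11.03 and 10.86 in DMSO day 8 libraries. The groups overlapped on both days, with differences of 0.22 (interval -0.07 to 0.51) on day 14 and 0.24 (interval -0.09 to 0.58) on day 8. The other enzymes ranged on day 14 from -0.38 for Gpi1, glucose-6-phosphate isomerase, to 0.34 for Eno1, an enolase, and none passed on either day. Aldoa, an aldolase (0.02), Pgam1, phosphoglycerate mutase (0.07), and Pkm, pyruvate kinase (-0.25), lay between them on day 14. Within the DMSO day 14 group, library 1 was the highest for 13 of the 18 enzymes and library 2 the lowest for 10, so this group was widely spread for the pathway.

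At the fate of pyruvate, Ldha, the lactate dehydrogenase subunit that HIF induces, had 12.85, 12.95, 12.77 and 12.65 in GSK day 14 libraries, against 12.74, 12.93, 13.01 and 12.91 in DMSO day 14 libraries. It had 12.83, 12.88 and 12.91 in GSK day 8 libraries, against 12.42, 12.83 and 12.63 in DMSO day 8 libraries. The groups overlapped on both days, with -0.09 (interval -0.36 to 0.17) on day 14, so a fall of the size seen for Slc16a3 lay outside the interval for Ldha. Ldhb, the other subunit, had 8.08, 7.90, 8.03 and 7.73 in GSK day 14 libraries, against 8.08, 7.42, 7.46 and 7.39 in DMSO day 14 libraries, and 7.68, 7.33 and 7.08 in GSK day 8 libraries, against 5.34, 6.89 and 6.80 in DMSO day 8 libraries. The day 8 groups were apart, with DMSO library 1 far below the rest. On the mean of both days Ldhb was 0.68 higher (SE 0.21, limma adjusted p = 0.0405), and without DMSO day 8 library 1 it was 0.43 higher (adjusted p = 0.0567).

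Pdk3, a kinase that switches off pyruvate dehydrogenase, had 6.94, 7.15, 6.84 and 7.15 in GSK day 14 libraries, against 6.81, 6.51, 6.66 and 6.69 in DMSO day 14 libraries. On day 8 it had 7.23, 6.78 and 7.24 in GSK libraries, against 6.24, 6.90 and 6.72 in DMSO libraries. It was above DMSO in every GSK library of day 14, overlapped on day 8, and was 0.41 higher on the mean of both days (SE 0.12, limma adjusted p = 0.0381). Pdk1, a kinase of this family that HIF induces, differed by 0.01 on day 14 and -0.29 on day 8 and passed in neither.

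None of the 3 oxygen sensing genes passed on either day alone. Hif1a, the oxygen-regulated subunit of HIF-1, had 10.59, 10.78, 10.60 and 10.68 in GSK day 14 libraries, against 10.61, 10.35, 10.44 and 10.43 in DMSO day 14 libraries. It had 10.48, 10.60 and 10.61 in GSK day 8 libraries, against 10.26, 10.06 and 10.37 in DMSO day 8 libraries. The day 8 groups were apart and those of day 14 overlapped through DMSO library 1. Hif1a passed only on the mean of both days, 0.27 higher (SE 0.09, limma adjusted p = 0.0464). Egln3, a prolyl hydroxylase that is itself a HIF target, had 7.46, 7.63, 8.02 and 7.74 in GSK day 14 libraries, against 7.73, 6.70, 7.60 and 7.76 in DMSO day 14 libraries. It had 7.23, 7.51 and 7.80 in GSK day 8 libraries, against 7.23, 7.44 and 7.28 in DMSO day 8 libraries, and did not pass on either day (0.26, interval -0.18 to 0.71, on day 14). Egln1, the main oxygen sensor, differed by 0.09 on day 14 and -0.14 on day 8.

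Of the 11 hypoxia-induced genes, which HIF drives outside glycolysis, 6 had a positive change on day 14, and 1, P4ha2, passed. Over all kept genes 52.4% had a positive change on that day and 10.8% passed. Vegfa, the angiogenic growth factor, had 10.25, 10.28, 10.12 and 10.49 in GSK day 14 libraries, against 9.36, 10.01, 9.91 and 10.01 in DMSO day 14 libraries. All GSK libraries were above all DMSO libraries, and the difference of 0.46 (SE 0.15, 1.38-fold) lay just outside the threshold (limma adjusted p = 0.0536), with a range of 0.027 to 0.181 over 28 alternative settings, 8 of which passed. DMSO library 1, the lowest, is the library with the highest enzyme levels. On day 8 Vegfa had 9.62, 9.44 and 9.60 in GSK libraries, against 9.48, 9.26 and 9.47 in DMSO libraries, which overlapped (0.15, adjusted p = 0.699). Bnip3, a mitophagy receptor, had 10.58, 10.98, 10.90 and 10.78 in GSK day 14 libraries, against 11.26, 10.77, 10.88 and 11.01 in DMSO day 14 libraries. It had 11.14, 10.70 and 11.15 in GSK day 8 libraries, against 10.98, 10.83 and 10.90 in DMSO day 8 libraries. Bnip3 overlapped on both days, with -0.17 (interval -0.48 to 0.13) on day 14 and 0.09 (interval -0.26 to 0.44) on day 8.

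**Figure D3:**
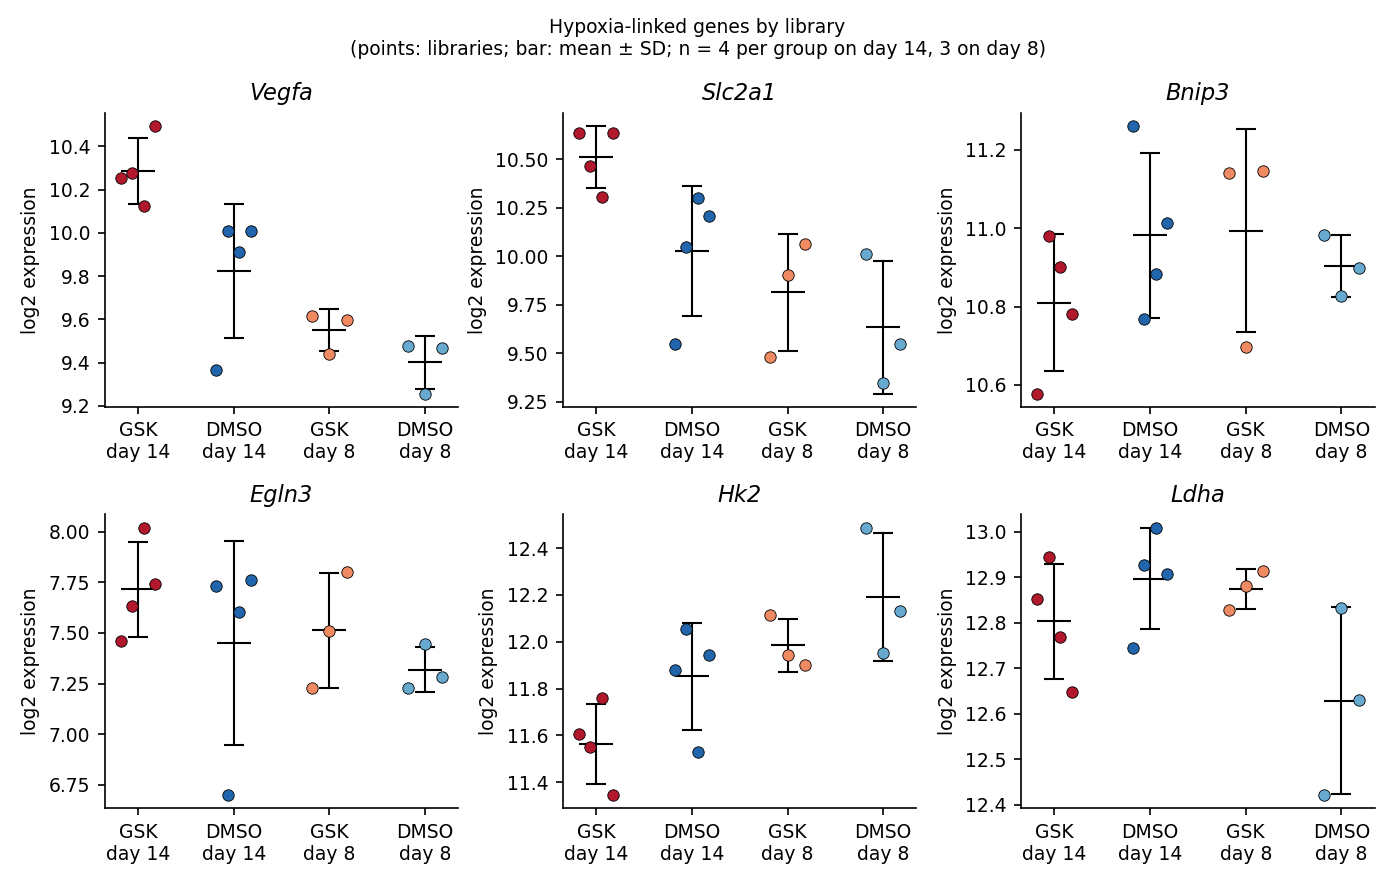
Log2 expression in each library of Vegfa, Slc2a1, Bnip3, Egln3, Hk2 and Ldha, in GSK day 14, DMSO day 14, GSK day 8 and DMSO day 8 tumours; points are libraries and bars the mean ± SD (n = 4 per group on day 14, 3 on day 8). Vegfa and Slc2a1 are highest in GSK day 14 libraries (means 10.29 and 10.51), while Bnip3, Egln3 and Ldha overlap between all groups compared.

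P4ha2, which hydroxylates collagen prolines, was the hypoxia-induced gene that passed on day 14. It had 5.43, 5.67, 5.89 and 5.59 in GSK day 14 libraries, against 6.08, 6.07, 6.19 and 6.31 in DMSO day 14 libraries, and fell by 0.51 on the log2 scale (SE 0.15, limma adjusted p = 0.0427). On day 8 it had 5.98, 5.61 and 5.73 in GSK libraries, against 5.91, 5.65 and 6.20 in DMSO libraries, which overlapped (-0.15). The call on P4ha2 was lost when 1 of 9 libraries was left out, namely GSK day 14 library 1, 2 or 4, any DMSO day 14 library, or GSK day 8 library 2 or 3, with adjusted p of 0.052 to 0.135. Its relative P4ha1, with the same activity, differed by 0.11 on day 14. Ddit4, an inhibitor of mTORC1 signalling, had 10.06, 9.75, 9.67 and 9.93 in GSK day 14 libraries, against 9.58, 8.36, 9.63 and 9.41 in DMSO day 14 libraries, and 10.19, 10.19 and 10.40 in GSK day 8 libraries, against 9.44, 10.12 and 9.30 in DMSO day 8 libraries. Its groups were apart on both days (0.61 and 0.64), and it passed on the mean of both, 0.63 higher (SE 0.18, limma adjusted p = 0.0338). The remaining genes of this class, Bnip3l, Ero1l, P4ha1, Adm, Ndrg1, Ankrd37 and Higd1a, ranged from -0.15 for Higd1a to 0.30 for Bnip3l on day 14.

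Glycogen synthase was lower while the enzyme that breaks glycogen down was not. Gys1 had 8.61, 8.44, 8.89 and 8.19 in GSK day 14 libraries, against 9.88, 9.91, 9.10 and 10.02 in DMSO day 14 libraries. On day 8 it had 9.64, 8.95 and 8.72 in GSK libraries, against 10.94, 10.10 and 10.11 in DMSO libraries. Both days were fully apart, DMSO day 14 library 3 being the nearest to GSK. Gys1 fell by 1.19 on the log2 scale on day 14 (SE 0.25, limma adjusted p = 0.0111), 2.29-fold lower, and was 1.08 lower without GSK day 14 library 4 (adjusted p = 0.0537). On day 8 the difference was -1.28 (SE 0.29, adjusted p = 0.0613), which passed without GSK day 8 library 1 (0.0228), DMSO day 14 library 3 (0.046) or DMSO day 8 library 2 (0.0441). Pygl, the liver glycogen phosphorylase, had 9.16, 9.47, 9.14 and 9.11 in GSK day 14 libraries, against 8.85, 9.04, 9.18 and 9.13 in DMSO day 14 libraries, and 8.86, 9.02 and 8.92 in GSK day 8 libraries, against 8.54, 9.28 and 8.88 in DMSO day 8 libraries. Pygl overlapped on both days (0.17 and 0.03), and the branching enzyme Gbe1 differed by 0.29 on day 14 and -0.04 on day 8.

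Ckb, the brain-type creatine kinase, which buffers ATP through phosphocreatine, showed the largest difference of the 43 genes on day 14. It had 8.89, 8.94, 9.11 and 8.39 in GSK day 14 libraries, against 11.06, 10.80, 9.64 and 10.39 in DMSO day 14 libraries. On day 8 it had 8.99, 8.68 and 8.65 in GSK libraries, against 10.65, 9.74 and 9.65 in DMSO libraries. The 7 GSK libraries lay between 8.39 and 9.11 and all 7 DMSO libraries above them. Ckb fell by 1.64 on the log2 scale on day 14 (SE 0.27, limma adjusted p = 0.00462), 3.12-fold lower. On day 8 the difference was -1.24 (SE 0.32, adjusted p = 0.0839) and on the mean of both days it was -1.44 (SE 0.21, adjusted p = 0.00108). The difference between the days was -0.41 (interval -1.29 to 0.48).

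The 4 larger decreases of day 14 were also seen within the libraries in which AY036118 was the higher ribosomal RNA gene, which left 4 GSK and 2 DMSO libraries on that day. There the changes were -1.07 for Slc16a3, -0.69 for Pfkl, -0.95 for Gys1 and -1.52 for Ckb, all past the threshold in limma (adjusted p of 0.0167 to 0.0367), and -0.48 for P4ha2 (adjusted p = 0.0789). In the same libraries Vegfa was 0.65 higher (adjusted p = 0.042), Slc2a1 differed by 0.59 (0.0804) and Gapdh by 0.36 (0.312). With the epithelial mean as a covariate the day 14 changes were -1.10 for Slc16a3, -0.63 for Pfkl, -1.10 for Gys1 and -1.68 for Ckb. All 4 passed, while P4ha2 (-0.43) did not. The epithelial means of the day 14 groups did not overlap, so this fit cannot fully separate the epithelium from the pre-treatment.

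Enzymes and hypoxia-induced genes were then set side by side. On day 14 the 18 enzymes had a median change of -0.12, with 8 positive and 1 called lower. The 11 hypoxia-induced genes had one of 0.01, with 6 positive and 1 called lower. Over all kept genes the day 14 median was 0.02, with 52.4% positive and 10.8% called, 5.73% as lower. On day 8 the medians were 0.20 for the enzymes (12 of 18 positive) and 0.15 for the hypoxia-induced genes (9 of 11 positive). Neither class had a call. Over all kept genes the day 8 median was 0.02, with 53% positive and 0.194% called. Each library's mean deviation from the gene averages gave for the enzymes -0.02 ± 0.07 in GSK day 14, 0.03 ± 0.19 in DMSO day 14, 0.04 ± 0.08 in GSK day 8 and -0.06 ± 0.01 in DMSO day 8 (SD over 4, 4, 3 and 3 libraries). For the hypoxia-induced genes it gave 0.06 ± 0.06 in GSK day 14, 0.01 ± 0.12 in DMSO day 14, 0.03 ± 0.11 in GSK day 8 and -0.12 ± 0.04 in DMSO day 8. The gap between the classes was 0.08 in GSK day 14, -0.02 in DMSO day 14, -0.01 in GSK day 8 and -0.07 in DMSO day 8, and on day 14 the GSK libraries (0.03 to 0.14) lay within the span of the DMSO libraries (-0.29 to 0.14). On day 14 the GSK libraries overlapped the DMSO libraries in both classes. On day 8 the hypoxia-induced class was apart, at -0.04 to 0.16 in GSK libraries against -0.16 to -0.09 in DMSO libraries. The enzymes overlapped through GSK library 2 only, at -0.05 to 0.11 in GSK libraries against -0.07 to -0.04 in DMSO libraries. The gap between the classes overlapped on day 8, at -0.14 to 0.09 in GSK libraries against -0.11 to -0.04 in DMSO libraries. No test was made of these means.

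**Figure D4:**
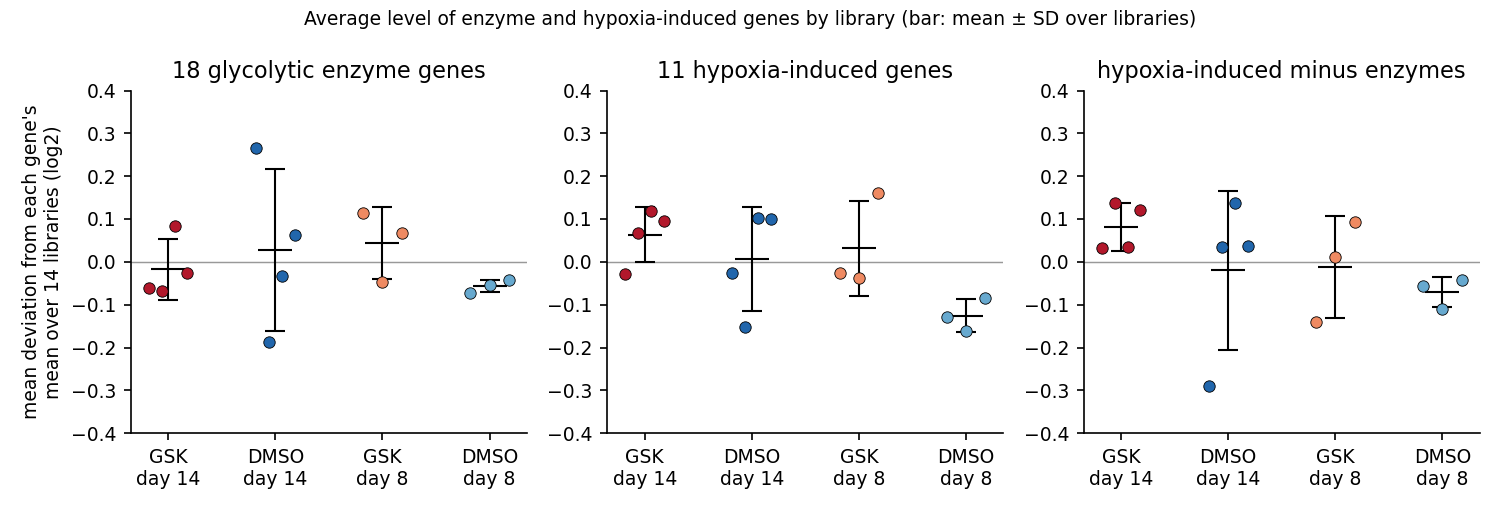
Mean deviation, on the log2 scale, of the 18 enzyme genes and the 11 hypoxia-induced genes from each gene's mean over 14 libraries, and the difference of the classes, by group; points are libraries and bars the mean ± SD. The DMSO day 14 libraries are the most spread (-0.19 to 0.27 for the enzymes), and the GSK day 14 libraries lie within their span in the enzyme panel.

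Taking both days together, 10 of the 43 genes passed, 4 higher and 6 lower, where 14.5% of all genes passed (6.73% higher, 7.77% lower). The 4 higher were Ldhb, Ddit4, Pdk3 and Hif1a, and the 6 lower were Ckb, Gys1, Slc16a3, Pfkl, Tpi1 and Hk3, with the values given above. Slc16a3, Gys1 and Ckb kept their call when any 1 library was left out, and so did Pfkl. Hk3, Ldhb and Hif1a each lost it for 11 of the 14 libraries, Tpi1 for 10, Pdk3 for 8 and Ddit4 for 6, with adjusted p of at most 0.114. The libraries whose removal kept those calls were DMSO day 14 libraries 2 and 3 and DMSO day 8 library 3 for Hk3, DMSO day 14 library 1 and DMSO day 8 libraries 2 and 3 for Ldhb, and DMSO day 14 library 1, GSK day 8 library 1 and DMSO day 8 library 3 for Hif1a. For Tpi1 they were GSK day 14 library 3, DMSO day 14 libraries 1 and 3 and DMSO day 8 library 2. Ddit4 lost its call without GSK day 14 library 1 or 4, GSK day 8 library 2 or 3, or DMSO day 8 library 1 or 3, and Pdk3 without GSK day 14 library 1, 2 or 4, DMSO day 14 library 2 or 4, GSK day 8 library 1 or 3, or DMSO day 8 library 1. Within the AY036118 libraries the changes were 0.24 for Ldhb, 0.21 for Ddit4 and 0.20 for Pdk3. Of the DMSO day 8 group these hold library 2 alone, the highest of that group for each of these genes. No member showed an effect of GSK that differed between the days in limma (0 of 43, 5 with an unadjusted p under 0.05, lowest adjusted p 0.548), beside 0.00841% of all genes, of which 8.3% had an unadjusted p under 0.05.

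Between the days, within GSK tumours, 4 of the 43 genes passed, 2 higher and 2 lower on day 14, where 7.01% of all genes passed (3.05% higher, 3.95% lower). This comparison shares the GSK day 14 libraries with the day 14 comparison. Vegfa, with 10.12 to 10.49 in GSK day 14 libraries and 9.44 to 9.62 in GSK day 8 libraries, rose by 0.74 (SE 0.16, limma adjusted p = 0.0158). Slc2a1, with 10.31 to 10.64 in GSK day 14 and 9.48 to 10.06 in GSK day 8 libraries, rose by 0.70 (SE 0.20, adjusted p = 0.0471). The lactate exporter Slc16a3 went the other way, with 11.55 to 12.08 in GSK day 14 and 12.49 to 13.21 in GSK day 8 libraries, and fell by 0.90 (SE 0.20, adjusted p = 0.021). Pfkl, with 8.59 to 9.21 in GSK day 14 and 9.46 to 9.96 in GSK day 8 libraries, fell by 0.75 (SE 0.16, adjusted p = 0.0147). The groups were apart for these 4 genes and for 13 of the 43 in all, against 30.3% of all genes.

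Markers of the 4T1 epithelium moved with this comparison: 8 of the 11 kept fell between day 8 and day 14 in GSK tumours, with a median of -1.70, and their mean was 4.93 to 5.20 in GSK day 14 libraries and 5.85 to 7.36 in GSK day 8 libraries. In other marker lists both kept erythroid genes fell (median -1.67), as did 2 of 5 dendritic markers, Fscn1 and Siglech (list median -0.47). Among 8 endothelial markers 1 fell, Pecam1 (list median -0.37). Across all genes 3.95% fell and 3.05% rose in this comparison. Of the 10 macrophage markers Lyz2 rose, 6 were higher and 1 lower without overlap between the days, and the median was 0.54. Over all kept genes 30.3% did not overlap, and the median was 0.01. None passed among the kept markers of neutrophils, fibroblasts, T and NK cells or B and plasma cells. The part of these lists in the 4 changes was not tested. The epithelial means of GSK day 14 and GSK day 8 libraries did not overlap. A fit with that mean as a covariate therefore cannot separate the epithelium from the day. In that fit none of the 4 genes passed. Their changes were 0.84 for Vegfa, 0.21 for Slc2a1, -0.47 for Slc16a3 and -0.31 for Pfkl. Without GSK day 8 library 1, the library with the highest epithelial mean, the changes were 0.77 for Vegfa, 0.53 for Slc2a1, -0.66 for Slc16a3 and -0.59 for Pfkl, with adjusted p of 0.0572, 0.269, 0.137 and 0.1. Without GSK day 14 library 4 none of the 4 passed either (adjusted p of 0.0601 to 0.135). Vegfa also lost its call without GSK day 8 library 2 (0.0629) and Slc16a3 without GSK day 14 library 1 (0.0579). Slc2a1 lost its call for 9 libraries in all, the others being GSK day 14 libraries 1, 2 and 3, DMSO day 14 libraries 2 and 4, GSK day 8 library 2 and DMSO day 8 library 3. Libraries of the DMSO groups enter through the shared estimate of the spread.

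Within DMSO tumours none of the 43 genes passed between the days in limma, where 0.824% of all genes did, and 7 had an unadjusted p under 0.05, beside 15.4% of all genes. The groups were apart for 4 genes, against 10.1% of all genes. Ldhb was the nearest, with 7.39 to 8.08 in DMSO day 14 libraries and 5.34 to 6.89 in DMSO day 8 libraries, a difference of 1.24 (adjusted p = 0.0647). Vegfa differed by 0.42 (interval 0.09 to 0.76, adjusted p = 0.223), Slc2a1 by 0.39, Slc16a3 by -0.28 (interval -0.71 to 0.16) and Pfkl by -0.26 (interval -0.60 to 0.08), and none passed. Whether these 4 genes changed more in GSK than in DMSO tumours is the same contrast as the difference of the GSK effect between the days, which did not pass (adjusted p = 0.595 for Pfkl and 0.599 for Slc16a3).

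Other genes of the same pathways were read from lists of 134 genes, of which 102 passed the filter. On day 14, 2 were higher and 10 lower in GSK tumours (11.8%), close to the 10.8% of all genes (5.1% higher, 5.73% lower). Lower with the smallest p were Anxa2, an annexin (-0.85, SE 0.14), Mif, a cytokine induced by hypoxia (-0.71, SE 0.16), and Plin2, a lipid droplet coat protein (-0.48, SE 0.11). In the pentose phosphate pathway, which branches off glucose-6-phosphate, Pgls, the lactonase (-1.02, SE 0.24), and Tkt, transketolase (-0.66, SE 0.17), were lower, while H6pd, which starts the pathway in the endoplasmic reticulum, was 0.73 higher (SE 0.18). Anxa2 had 11.55, 11.71, 11.79 and 11.35 in GSK day 14 libraries, against 12.48, 12.43, 12.41 and 12.49 in DMSO day 14 libraries, fully apart. By list, 6 of 33 other hypoxia-response genes were lower and none higher, 2 of 8 pentose phosphate genes were lower and 1 higher, 2 of 18 other glycogen genes were lower and none higher, and 1 of 17 other genes of glycolysis and gluconeogenesis was higher and none lower. None passed among 13 genes of pyruvate dehydrogenase, 10 of oxygen sensing and 4 of creatine metabolism. On day 8 none of the 102 passed in limma, beside 0.194% of all genes, and 21 had an unadjusted p under 0.05, beside 16.3%. On the mean of both days 2 were higher and 13 lower (14.7%), beside 14.5% of all genes (6.73% higher, 7.77% lower).

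Between the days, 3 of the 102 rose and 5 fell in GSK tumours (7.84%), close to the 7.01% of all genes. With the smallest p were Anxa2 (-0.90), Ppp1r3b, a glycogen-targeting subunit of protein phosphatase 1 (0.96), Egln2, a prolyl hydroxylase (-0.68), Mif (-0.73), Mpi, mannose phosphate isomerase (-0.73), and Bpgm, bisphosphoglycerate mutase (0.51). In DMSO tumours 1 rose and 1 fell (1.96%, beside 0.824% of all genes): Tgfb3, a growth factor, was 0.80 higher (SE 0.17, limma adjusted p = 0.0372), and Epas1, the HIF-2 alpha subunit, was 0.86 lower (SE 0.14, adjusted p = 0.0123). Epas1 had 7.31, 7.29, 7.68 and 7.41 in DMSO day 14 libraries, against 8.16, 8.50 and 8.19 in DMSO day 8 libraries, with no overlap. In GSK libraries it had 7.74, 7.77, 7.75 and 7.88 on day 14, against 8.34, 8.13 and 8.07 on day 8.

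The 5 genes that were lower on day 14 had transcripts above the median GC content of the 43. The GC content of the longest annotated transcript was 41.3% to 61.7% over the 43 genes (median 51.9%) and 52.1% to 61.7% over the 5 that were lower, with 61.7% in Ckb. Over the 43 genes the day 14 change correlated with GC content at r = -0.37, and over 11870 genes at r = -0.164, as a description over genes of the same libraries. The median change on day 14 was 0.09 in genes at or below 44.4% GC and -0.07 in genes at or above 53.9%. With each library's GC trend removed, an alternative chosen after seeing the data, Slc16a3 (-1.12), Pfkl (-0.64), Gys1 (-1.13) and Ckb (-1.48) still passed on day 14. A further limit is shared sequence: 15 of the 43 genes had 10% or more of their 31-base words in common with some other annotated gene, among them Bnip3 (57.0%), Pgk1 (54.7%), Ldhb (33.0%), Gapdh (28.1%), Ldha (19.6%), Ckb (17.5%) and Tpi1 (10.5%), so their levels are uncertain. Slc16a3 shared 0%, Pfkl 0.46% and Gys1 7.11%.

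**Figure D5:**
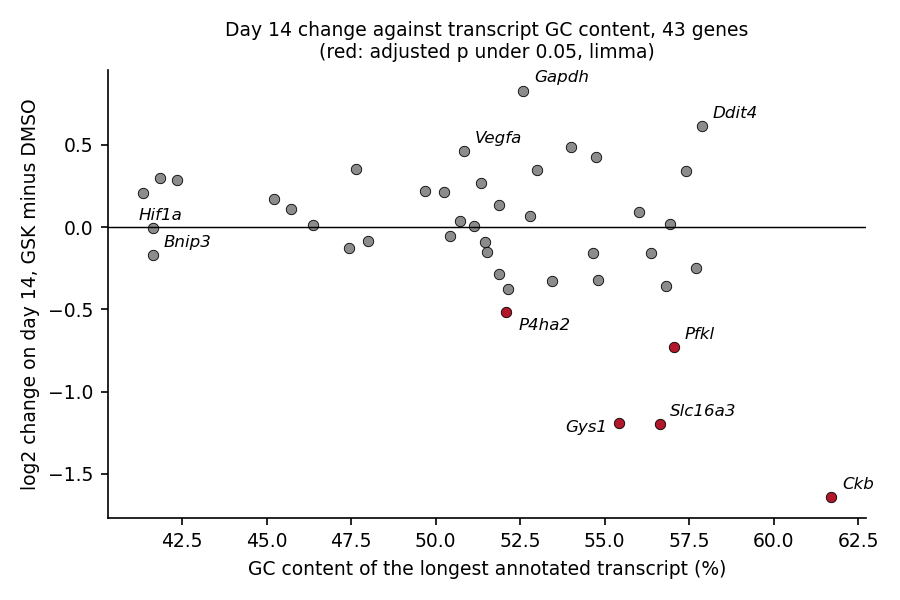
The log2 change on day 14 (GSK minus DMSO) against the GC content of the longest annotated transcript, 1 point per gene for the 43 genes; red marks an adjusted p under 0.05. The 5 red points lie at 52.1% GC or more, Ckb at the far right with 61.7% and -1.64, while Gapdh (0.83) and Ddit4 (0.61) lie in the same GC range with positive changes.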

How the data were processed

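RNA-seq of 14 macrophage libraries was deposited by the authors as 1 table of log2 expression values, with 24556 mouse genes by 14 columns, and every column was matched to a library. Per the submitters' processing notes Bowtie2, RSEM 1.2.29 and DESeq2 1.12.4 were used, with the builds mm10 and GRCh38; the transformation to log2 values is not given in the sources used here. Some deposited log2 values are below 0. No counts were used, which leaves the depth unknown, and no interval for counting error was computed. Whether the values are per length was not established, so levels are not compared between genes. Whether reads were counted by strand is not given in the sources used here.

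Symbols and coordinates came from GENCODE M21 on GRCm38 by Ensembl identifier (24470 of 24556 matched, 86 not). Genes at 10 or more unlogged in at least 3 libraries were kept (11886). A limma model (limma 3.58.1, R 4.3.3) with 4 group means and a variance trend was fitted to all 14 libraries and all kept genes, and tested on simulated data. Tests were two-sided, with Benjamini-Hochberg adjustment over all 11886 genes and a threshold of 0.05; intervals are at 95% and unadjusted, and SE is that of the fit. "Apart" means that no library of one group lay within the range of the other. Comparisons were GSK against DMSO on each day, the mean and the difference of these effects, and, for each pre-treatment, day 14 against day 8.

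The 43 genes, the pathway and marker lists and the tests were chosen with earlier results of these data known. Values in every library are given for members past the threshold in any comparison and for Slc2a1, Slc16a3, Hk2, Pfkl, Gapdh, Pgk1, Ldha, Hif1a, Egln3, Bnip3, Vegfa, Gys1, Pygl and Ckb; genes of the pathway lists are named by smallest p, at most 6 per comparison, and the library values of Anxa2 and Epas1 were added after they were seen. Alternatives were no filter or a minimum of 50, a pseudocount of 10, quantile and TMM rescaling (unweighted factors), no trend, quality weights, a replicate block, only the groups compared, each library left out, library 1 of GSK day 8 and DMSO day 8 left out together, the ribosomal RNA split, the epithelial mean as a covariate, and, chosen after seeing the data, removal of the GC trend.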

Additional observations from a re-analysis of the deposited data

Results flagged for a closer look

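In groups of 4 libraries, the highest or lowest value of a member was flagged when its gap to the nearest other library was, as a share of the group's range, above Dixon's 95% critical value, and 9 of 86 were flagged; chance flags about 1 in 20. In DMSO day 14 library 1, Pfkl was low at 9.47 (the next was 9.64) and Vegfa was low at 9.36 (next 9.91), while Pkm was high at 12.91 (next 12.28) and Ldhb high at 8.08 (next 7.46). In DMSO day 14 library 2, Egln3 was low at 6.70 (next 7.60), and in DMSO day 14 library 3, Gys1 was low at 9.10 (next 9.88). In GSK day 14 libraries, Pgam1 was high at 12.65 in library 3 (next 12.53), Bnip3l high at 9.40 in library 4 (next 9.15) and Pygl high at 9.47 in library 2 (next 9.16). Without DMSO day 14 library 1 the day 14 changes were -0.78 for Pfkl and 0.31 for Vegfa, and without DMSO day 14 library 3 that of Gys1 was -1.40; the causes of these values were not tested.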

How the results depend on the processing

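The counts of members passing moved with several settings, and the causes were not tested. Each setting refitted all genes tested, not the 43 alone. The share of all genes passing in each setting is not given here. The counts below therefore do not show a trait of the 43 genes. On day 14 the 5 members became 10 with quality weights and 8 without library 1 of both GSK and DMSO on day 8, and 3 to 7 with 1 library left out. On day 8 the count of 0 became 2 with quality weights and was 0 to 2 with 1 library left out. On the mean of both days the 10 members became 4 without a filter, 16 with quality weights, 4 with the replicate block, 5 with a term for the ribosomal RNA split and 5 in AY036118 libraries only, and were 4 to 12 with 1 library left out. Between the days in GSK tumours the 4 members became 2 without a filter, 11 with quality weights, 1 with the replicate block, 0 without library 1 of both day 8 groups, 1 in AY036118 libraries only and 0 with the epithelial covariate, and were 0 to 4 with 1 library left out. In DMSO tumours the count of 0 between the days became 1 with the GC trend removed and was 0 to 1 with 1 library left out. The difference of the GSK effect between the days stayed at 0 in every setting run. A fit of only the groups compared cannot give the mean of both days or that difference. Slc16a3, Pfkl and Ckb passed on day 14 under all 28 alternatives and Gys1 under 27. On the mean of both days Pfkl lost its call under 1 of 27 alternatives (limma adjusted p = 0.0579), which was not the removal of a single library. Small differences turned sign for Ldha on day 14 (0.10 with quantile normalisation), Bnip3 on day 8 (-0.10 with quality weights) and Pygl on day 8 (-0.11 without library 1 of both day 8 groups, -0.024 with the ribosomal RNA term, -0.31 in AY036118 libraries only, -0.015 with the epithelial covariate, and -0.15 to 0.22 with 1 library left out). In all, 1194 values of 43 results gave 1019 with direction and call kept, 145 with the call lost, 22 with a call gained and 8 reversed. Deviations from the group means correlated at -0.34 to 0.52 between libraries of the same number (median -0.03, 19 pairs, 5 over 0.1). Between libraries of different numbers they correlated at -0.52 to 0.38 (median -0.02, 54 pairs, 14 over 0.1). So few libraries cannot show whether the numbers pair the samples. The replicate block kept 4 of the day 14 calls. Where 1 library remained in a group, as DMSO day 8 library 2 did in the AY036118 libraries, it was assumed to vary like the others.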
